A study of Mus musculus with 6 samples.

Results

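Macrophage and myeloid transcripts were followed in cultures of mouse skin fibroblasts, as a set of 43 genes chosen by symbol among the 23407 genes of the deposited table. All 43 were present. The set covers the complement component C1q, Fc receptors and their signalling adapters, receptors for microbial and damage signals, surface and adhesion molecules of leukocytes, lysosomal proteins, the phagocyte NADPH oxidase, leukocyte cytoskeleton, the transcription factor gene Spi1 and MHC class II. The cells were primary dermal fibroblasts from the dorsal skin of mice aged 12 weeks, grown for 3 to 5 days with serum and taken for RNA at passage 1. Of the 6 libraries, 3 came from wild-type mice (WT 1, WT 2 and WT 3) and 3 from mice lacking thrombospondin-2, labelled TSP2KO (TSP2KO 1, TSP2KO 2 and TSP2KO 3). Thrombospondin-2, the product of Thbs2, is a secreted protein that binds to matrix and cells. The labels describe neither the knockout allele nor the strain. Nor do they say whether libraries of 1 genotype stem from different mice, so p-values measure the spread among these libraries alone, and that spread may be technical.

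Macrophages are resident phagocytes of the dermis. They bind antibody-coated particles through Fc receptors, which signal through small adapters such as Fcer1g and Tyrobp, and take up microbes and debris through scavenger and lectin receptors. They make C1q, kill ingested microbes with lysozyme and with superoxide from the NADPH oxidase, and can present peptides on MHC class II. Fibroblasts do not make most of these proteins. The transcription factor PU.1, encoded by Spi1, drives many of their genes.

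Values are normalised reads, the authors' signal per gene scaled for library size. Where 3 values of a genotype follow each other, they are those of its libraries 1, 2 and 3 in that order. Estimated depth was between 14776502 and 34599855 reads per library, so that 1 read was worth between 0.392 and 0.890 normalised reads. Thbs2 was at 122061 in WT 1 and 116720 in WT 2, but at 8841 in WT 3, against 5177, 6635 and 4891 in TSP2KO 1, TSP2KO 2 and TSP2KO 3. The library labelled WT 3 thus went against its label at the targeted gene, and every WT mean below includes it. Fibroblast markers were abundant in all libraries, with a summed value over 10 genes between 165989 and 391938. Most of that sum comes from the collagens and Pdgfrb, and several fibroblast markers were lower in TSP2KO together with the myeloid genes. Of the 10, 8 were lower, against 51.5% of all genes in the limma test described below. The median over the 10 was -0.73 on the log2 scale. For 4 of them (Pdgfra, Dcn, Lum and Pdpn) every TSP2KO library lay below every WT library, against 8.27% of all tested genes. In the limma test 0 of the 10 passed, and 4 were lower at an unadjusted p under 0.05, against 6.09% of all tested genes. Without the library labelled WT 3, 1 of them, Pdgfra, passed as lower, against 2.75% of all tested genes. Dcn, the matrix proteoglycan decorin, had 50984, 55417 and 38395 in WT and 12200, 11095 and 2368 in TSP2KO (a log2 difference of -2.80, SE 0.61, limma adjusted p = 0.182). Lum, the related lumican, had 6822, 7501 and 3675 in WT and 1513, 1385 and 86.4 in TSP2KO (a log2 difference of -3.33, SE 1.04, limma adjusted p = 0.341). A sum over 4 keratinocyte markers was 21878 in the library labelled WT 3, 7042 and 6988 in TSP2KO 1 and TSP2KO 2, and between 237 and 801 in the other 3 libraries. Sums over 4 endothelial markers and over 4 measured mast cell markers were also highest in the library labelled WT 3, at 3331 and 929, against ranges of 323 to 1424 and 70.3 to 186 elsewhere. Most of the mast cell sum was Kit, at 875 in the library labelled WT 3. There Cpa3, Tpsb2 and Mcpt4 had 23.1, 25.7 and 5.13, and each had at most 3.09 elsewhere. Sums over measured markers of other leukocytes were at most 75.5 normalised reads and did not share a direction. The T cell sum (2 genes) was 7.73, 4.32 and 12.8 in WT and 5.75, 21.3 and 51.6 in TSP2KO. Its gene Trac was higher in TSP2KO (a log2 difference of 2.41, SE 0.82, limma adjusted p = 0.395). The neutrophil sum (3 genes) was 6.18, 2.75 and 65.4 in WT and 44.2, 75.5 and 7.12 in TSP2KO. The dendritic and Langerhans cell sum (5 genes) was 25.2, 16.9 and 45.5 in WT and 16.1, 14.5 and 9.79 in TSP2KO. The B cell sum (1 gene) was between 0 and 2.24. Of the genes taken as defining for macrophages, Adgre1, Csf1r, Cd68, Itgam and Mertk were above 0 in all 6 libraries, and Fcgr1 was listed at 0 in the 3 TSP2KO libraries. Those 5 were all lower in TSP2KO, with a median of -1.40 on the log2 scale, but Cd68 and Mertk overlapped between the groups. Mertk had 690, 417 and 302 in WT and 410, 354 and 51.6 in TSP2KO (a log2 difference of -1.17, SE 0.77, limma adjusted p = 0.703). The part of these cell types, fibroblasts included, in the results below was not tested.

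Summed over the 43 genes, the myeloid signal was 8268, 7315 and 6071 normalised reads in WT and 1534, 1514 and 1288 in TSP2KO. These sums were between 0.0518% and 0.0642% of the library's total in WT and between 0.00979% and 0.0132% in TSP2KO. The groups did not overlap. Lyz2 alone made up between 26.0% and 55.1% of the sum, and without it the sums were between 3627 and 4314 in WT and between 693 and 1135 in TSP2KO. In bulk RNA, fewer myeloid cells and less of these transcripts per cell cannot be told apart.

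**Figure D1:**
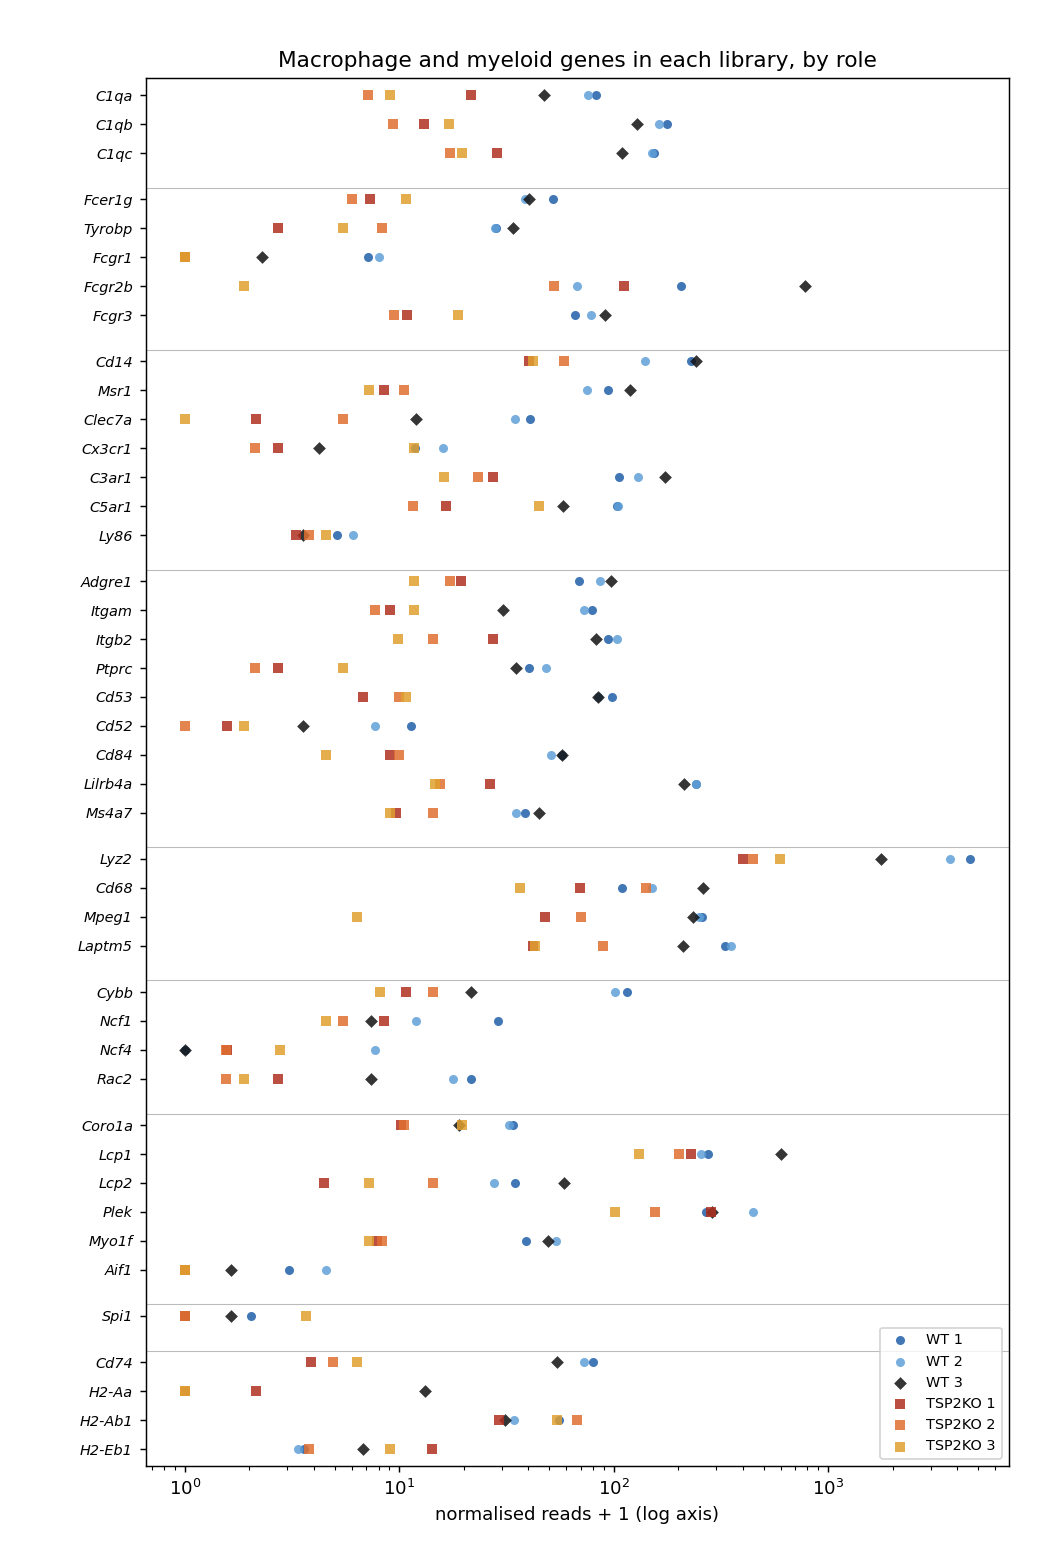
Normalised reads plus 1 on a log axis (horizontal) for each of the 43 genes (vertical, grouped by role, with lines between roles). Circles are WT 1 and WT 2, black diamonds the library labelled WT 3, and squares the 3 TSP2KO libraries. In most rows the squares lie to the left of the circles and the diamond, while some rows, such as those of H2-Ab1, H2-Eb1, Spi1, Plek and Cd68, show overlap.

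Of the 43 genes, 33 had a mean of at least 10 normalised reads over the 6 libraries and were tested with limma among 14707 genes. Past the threshold, a p under 0.05 after Benjamini-Hochberg adjustment across the whole table tested, 5 of the 33 were lower in TSP2KO and 0 were higher, where 0.0612% of all tested genes passed as lower and 0.0% as higher. The 5 were C1qb, Msr1, Cd53, Lilrb4a and Cd74, with limma adjusted p between 0.0456 and 0.0476, and between 0.00988 and 0.405 over all alternatives. These calls lie close to the threshold. Leaving out WT 1, WT 2 or any single TSP2KO library left 0 calls among the 33 genes, and rescaling the libraries by total, by upper quartile or by quantiles also left 0. With WT 3 left out, 21 of the 33 passed as lower, the 5 among them, and 0 as higher, where 2.75% and 2.43% of all tested genes did. At an unadjusted p under 0.05, 29 of the 33 were lower and 0 higher, against 6.09% and 3.66% of all tested genes.

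In direction, 32 of the 33 were lower in TSP2KO, against 51.5% of all tested genes, and the exception was H2-Ab1. The groups did not overlap, with every TSP2KO library below every WT library, for 27 of the 33 genes, against 8.27% of all tested genes, and the reverse held for 0, against 5.9%. A value at least 2-fold lower in TSP2KO was seen for 30 of the 33, against 6.15% of all tested genes. The median log2 fold change was -2.58, with quartiles of -3.15 and -2.10, beside a median of -0.01 over all tested genes. The filter on the mean favours genes that are high in a single group, so these counts describe the 33 genes and do not stand for the set. Over all 43 genes with no filter, 40 were lower, with a median of -2.47, and the 3 higher genes were Spi1, H2-Ab1 and H2-Eb1.

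The 3 chains of C1q, which recognises antibody complexes and dying cells, were all lower. C1qb (chromosome 4, 136880129 to 136886187, minus strand, mm10) had 177, 161 and 128 normalised reads in WT and 12.1, 8.39 and 16.03 in TSP2KO. Its groups were far apart, and it fell 12.1-fold (a log2 difference of -3.60, SE 0.33, limma adjusted p = 0.0456). C1qc had 153, 149 and 108 in WT and 27.6, 16.2 and 18.7 in TSP2KO, and its difference of -2.67 on the log2 scale (SE 0.32) missed the threshold (limma adjusted p = 0.0634). C1qa had a log2 fold change of -2.57 (SE 0.51), and its highest TSP2KO value, 20.7 in TSP2KO 1, lay below its lowest WT value, 46.2 in WT 3. The 3 genes lie next to each other, with gaps of 3.62 kb between C1qb and C1qc and 2.85 kb between C1qc and C1qa. Without the library labelled WT 3 all 3 passed (limma adjusted p between 0.0108 and 0.038, and between 0.0108 and 0.562 over all alternatives).

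Among the Fc receptors and their adapters, 4 of 5 genes were tested and 0 passed. Fcgr3, an activating receptor for antibody, had 64.7, 77.5 and 89.8 normalised reads in WT and 9.90, 8.49 and 17.8 in TSP2KO (a log2 difference of -2.64, SE 0.38, limma adjusted p = 0.0974). Its groups did not overlap. The adapter genes Fcer1g and Tyrobp, whose products carry the signalling motif for several of these receptors, had log2 fold changes of -2.47 and -2.59. Tyrobp had 27.3, 27.1 and 32.7 in WT and 1.72, 7.27 and 4.45 in TSP2KO. Fcgr2b, the inhibitory Fc receptor, varied widely within both groups. WT 1 held 204 normalised reads of it, WT 2 held 66.1 and the library labelled WT 3 held 778, against 110, 51.4 and 0.890 in TSP2KO 1, TSP2KO 2 and TSP2KO 3. TSP2KO 1 therefore lay above WT 2, TSP2KO 3 held a single read, and the log2 fold change of -3.31 had an SE of 1.56 (limma adjusted p = 0.563). Values of Fcgr2b and Fcgr3 were not whole numbers of reads in 5 of 6 libraries each; these genes are close relatives on chromosome 1 and their values are uncertain to that extent.

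Receptors for microbial and damage signals had 5 of 7 genes tested, all lower and all without overlap between the groups. Msr1 (chromosome 8, 39581685 to 39642673, minus strand), a scavenger receptor for modified lipoproteins, had 92.7, 73.7 and 117 normalised reads in WT and 7.47, 9.51 and 6.23 in TSP2KO. It fell 10.9-fold (a log2 difference of -3.44, SE 0.35, limma adjusted p = 0.0456). Cd14, the co-receptor for bacterial lipopolysaccharide, had 229, 139 and 241 in WT and 39.1, 57.6 and 41.0 in TSP2KO (a log2 difference of -2.10, SE 0.31, limma adjusted p = 0.0974). C3ar1, the receptor for the complement fragment C3a, had 105, 129 and 173 in WT and 26.4, 22.4 and 15.1 in TSP2KO (a log2 difference of -2.62, SE 0.33, limma adjusted p = 0.0791). In Msr1, Cd14 and C3ar1 the library labelled WT 3 held the highest value of the 6. Clec7a, the beta-glucan receptor Dectin-1, had a log2 fold change of -3.49 (SE 0.83, limma adjusted p = 0.224), which rests on 2, 8 and 0 reads in TSP2KO. C5ar1, the receptor for C5a, had one of -2.07 (SE 0.55, limma adjusted p = 0.263). For both Clec7a and C5ar1 the library labelled WT 3 was the lowest WT library, with 10.9 of Clec7a against 39.7 and 33.7 in WT 1 and WT 2.

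Surface and adhesion molecules formed the largest role group, with 8 of 9 genes tested, all 8 lower and without overlap, and 2 past the threshold. Lilrb4a (chromosome 10, 51490956 to 51496611, plus strand), a myeloid receptor that dampens activation, had 240, 240 and 211 normalised reads in WT and 25.5, 14.4 and 13.6 in TSP2KO. It fell 12.7-fold (a log2 difference of -3.67, SE 0.31, limma adjusted p = 0.0456), though it has a close paralog and none of its 6 values was a whole number of reads. Cd53 (chromosome 3, 106759921 to 106790149, minus strand), a tetraspanin of leukocytes, had 96.8, 83.2 and 83.4 in WT and 5.75, 8.95 and 9.79 in TSP2KO. It fell 9.86-fold (a log2 difference of -3.30, SE 0.34, limma adjusted p = 0.0456). Both genes were nearly level over the 3 WT libraries. Itgb2, the integrin beta chain shared by leukocyte integrins, had 92.7, 102 and 81.5 in WT and 26.4, 13.4 and 8.90 in TSP2KO (a log2 difference of -2.56, SE 0.42, limma adjusted p = 0.111). Ptprc, which encodes CD45, the phosphatase on all nucleated blood cells, had 39.1, 47.1 and 34.0 in WT and 1.72, 1.12 and 4.45 in TSP2KO, which stands for 3, 2 and 5 reads. Its log2 fold change of -3.69 (SE 0.53, limma adjusted p = 0.0974) rests on those few reads. Adgre1, which encodes the macrophage antigen F4/80, Itgam, the integrin chain CD11b, Cd84 and Ms4a7 had log2 fold changes between -2.90 and -1.87.

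Lysosomal and granule genes held the most abundant member. Per kb of exon, Lyz2, lysozyme, was at 2534 normalised reads in WT and 364 in TSP2KO, and the next in WT were C1qb at 143, Cd68 at 137 and Cd14 at 117. Lyz2 had 4557, 3688 and 1758 normalised reads in WT and 398, 445 and 595 in TSP2KO (a log2 difference of -2.71, SE 0.36, limma adjusted p = 0.0974). The groups did not overlap, with the library labelled WT 3 the lowest of WT. Without it the log2 fold change was -3.12 (SE 0.22, limma adjusted p = 0.00525; between 0.00525 and 0.411 over all alternatives). Laptm5, a lysosomal membrane protein of blood cells, had 330, 353 and 208 in WT and 40.8, 87.8 and 41.8 in TSP2KO (a log2 difference of -2.42, SE 0.37, limma adjusted p = 0.109). Mpeg1, a pore-forming protein of macrophages, was level in WT at 256, 249 and 232 and uneven in TSP2KO at 46.5, 69.4 and 5.34. Cd68, a lysosomal glycoprotein used as a macrophage marker, overlapped between the groups, with 109, 149 and 259 in WT and 68.4, 140 and 35.6 in TSP2KO (a log2 difference of -1.19, SE 0.54, limma adjusted p = 0.530).

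Of the 4 NADPH oxidase genes 2 were tested. Cybb, the catalytic subunit, was at 114 normalised reads in WT 1, at 101 in WT 2 and at only 20.5 in the library labelled WT 3, against 9.77, 13.4 and 7.12 in TSP2KO 1, TSP2KO 2 and TSP2KO 3. Its groups did not overlap, but the library labelled WT 3 sat near TSP2KO, and the log2 fold change of -2.55 (SE 0.68, limma adjusted p = 0.264) became -3.32 (SE 0.40, limma adjusted p = 0.0148) without it. Over all alternatives the adjusted p of Cybb lay between 0.0148 and 0.761. Ncf1, a cytosolic subunit, had 27.8, 11.0 and 6.41 in WT and 7.47, 4.48 and 3.56 in TSP2KO, and WT 3 lay below TSP2KO 1. Rac2, the small GTPase of the oxidase, was below the filter, with 20.6, 16.9 and 6.41 in WT and 1.72, 0.559 and 0.890 in TSP2KO. Its groups did not overlap.

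Leukocyte cytoskeleton and signalling genes differed least as a group, with a median log2 fold change of -1.10 over 5 tested genes and 0 past the threshold. Lcp1, the actin-bundling protein L-plastin, had 273, 255 and 602 normalised reads in WT and 229, 201 and 130 in TSP2KO (a log2 difference of -0.93, SE 0.38, limma adjusted p = 0.496). Its groups did not overlap, but TSP2KO 1 was close to WT 2. Plek, pleckstrin, a substrate of protein kinase C in platelets and leukocytes, had 268, 445 and 287 in WT and 282, 154 and 99.8 in TSP2KO, with TSP2KO 1 above WT 1 (a log2 difference of -0.99, SE 0.40, limma adjusted p = 0.483). None of the 6 values of Lcp1 or of Plek was a whole number of reads. Coro1a, coronin-1A, had a log2 fold change of -1.10 with overlapping groups. Myo1f, a class I myosin of leukocytes, and Lcp2, the adapter SLP-76, had larger differences, with log2 fold changes of -2.59 and -2.30.

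The MHC class II genes differed among themselves. Cd74 (chromosome 18, 60803848 to 60812652, plus strand), the invariant chain that guards the class II groove, had 79.3, 71.4 and 53.2 normalised reads in WT and 2.87, 3.92 and 5.34 in TSP2KO. It fell 13.8-fold, the most of the 33 genes (a log2 difference of -3.78, SE 0.40, limma adjusted p = 0.0476). H2-Ab1, a class II beta chain, was not lower, with 54.6, 33.3 and 30.2 in WT and 28.2, 66.6 and 53.4 in TSP2KO. Its groups overlapped and its log2 fold change was 0.28 (SE 0.42, limma adjusted p = 0.871). H2-Eb1, another beta chain, had at most 13.2 normalised reads, in TSP2KO 1. H2-Aa, the alpha chain that pairs with the product of H2-Ab1, was listed at 0 in WT 1, WT 2, TSP2KO 2 and TSP2KO 3, at 1.15 in TSP2KO 1 and at 12.2 in the library labelled WT 3. Ciita, the class II transactivator, did not exceed 1.12 in any library. The class II loader genes H2-DMa and H2-DMb1 had log2 fold changes of -0.07 and 0.08.

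The 10 genes below the filter were Spi1, Fcgr1, Cx3cr1, Ly86, Cd52, Ncf4, Rac2, Aif1, H2-Aa and H2-Eb1. Spi1, the lineage factor itself, had 1.03, 0 and 0.641 normalised reads in WT and 0, 0 and 2.67 in TSP2KO, which is at most 3 reads in any library. At this depth no difference in Spi1 was detectable. Fcgr1, the high-affinity Fc receptor, had 6.18, 7.06 and 1.28 in WT, and Aif1, the calcium-binding protein Iba1, had 2.06, 3.53 and 0.641. Both were listed at 0 in all 3 TSP2KO libraries. Cd52, a small surface glycoprotein of leukocytes, had between 2.57 and 10.3 in WT and at most 0.890 in TSP2KO. Cx3cr1, the fractalkine receptor, overlapped between the groups, with 10.7 in TSP2KO 3 against 10.8 in WT 1 and 3.21 in the library labelled WT 3.

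**Figure D2:**
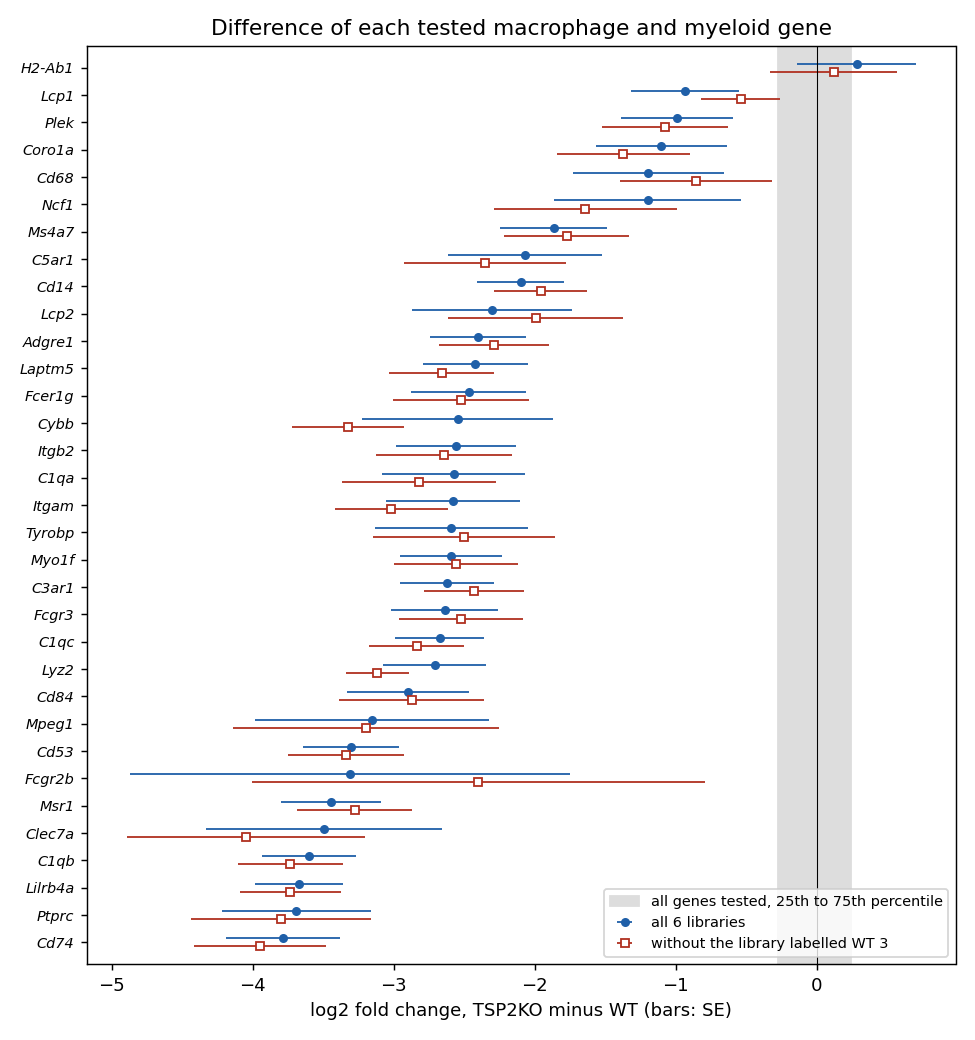
Log2 fold change of TSP2KO minus WT (horizontal, bars show the SE) for each of the 33 tested genes (vertical, in order). Blue circles use all 6 libraries, and open red squares leave out the library labelled WT 3. The grey band spans the 25th to 75th percentile of all 14707 tested genes, -0.27 to 0.25, and all of the blue circles except that of H2-Ab1 lie to its left.

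The size of the difference was similar over many of the genes but not uniform. Of the 33, 23 lay within 1 log2 unit of the median of -2.58. The interquartile range of the log2 fold changes was 1.06, beside a median SE of 0.41 per gene and an interquartile range of 0.52 over all tested genes. Role groups had medians of -2.67 for C1q, -2.61 for Fc receptors and adapters, -2.62 for microbial and damage receptors, -2.74 for surface and adhesion molecules and -2.57 for lysosomal genes. These 5 medians lay close together, but single genes within those roles ranged from -3.69 to -1.19. The other tested roles had medians of -1.87 for the NADPH oxidase (2 genes), -1.75 for MHC class II (2 genes) and -1.10 for cytoskeleton and signalling (5 genes). Each of these medians covers unlike genes. The NADPH oxidase held Cybb at -2.55 and Ncf1 at -1.20, and MHC class II held Cd74 at -3.78 and H2-Ab1 at 0.28. In cytoskeleton and signalling, Myo1f at -2.59 and Lcp2 at -2.30 stood beside Coro1a, Plek and Lcp1, between -1.10 and -0.93. The 6 genes with the smallest difference or none were H2-Ab1, Lcp1, Plek, Coro1a, Cd68 and Ncf1, with log2 fold changes between -1.20 and 0.28, all 6 with limma adjusted p of at least 0.483. Of these, Lcp1 alone had groups that did not overlap. Split by level, the genes had like medians but unlike spreads. The 16 genes with the higher mean over all libraries had a median of -2.59 with an interquartile range of 1.10, and the 17 with the lower mean had -2.58 with 0.59. The order of the genes was broadly kept between the groups. Across the 33 genes, WT and TSP2KO means had a Spearman's rho of 0.79 and a Pearson's r of 0.84 on the log2 scale. The genes share their libraries and are not independent replicates. No such value was computed over all tested genes, so these 33 cannot be compared with the rest and the values do not measure uniformity. Among the tested genes 17 had 10 reads or fewer in at least 1 TSP2KO library, against 1 gene in WT, and the added pseudocount of 1 holds their fold changes back.

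**Figure D3:**
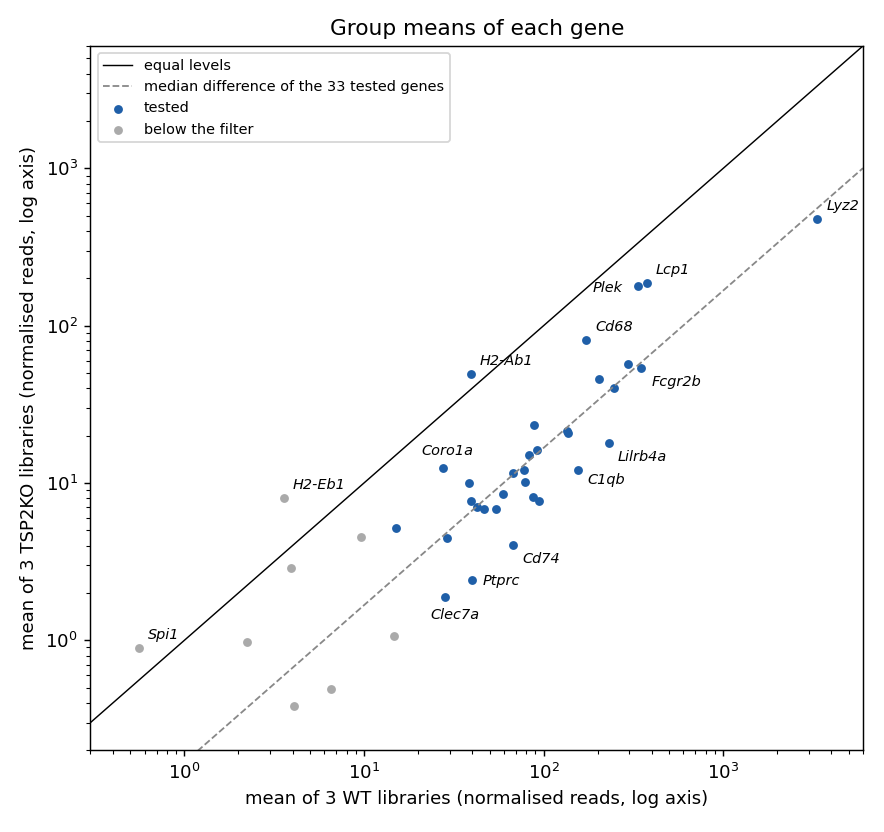
Mean of 3 WT libraries (horizontal) against mean of 3 TSP2KO libraries (vertical), both in normalised reads on log axes, for each gene with a mean above 0 in TSP2KO. The solid line marks equal levels and the dashed line the median log2 fold change of -2.58. Most tested genes (blue) lie along the dashed line, while H2-Ab1, Plek, Lcp1, Cd68 and Coro1a lie nearer to the solid line.

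For most of these genes the library labelled WT 3 resembled WT 1 and WT 2, although its Thbs2 was close to TSP2KO. As offsets from the mean of the log2 values in WT 1 and WT 2, the median of the 33 genes was -0.19 in the library labelled WT 3. It was -2.59 in TSP2KO 1, -2.47 in TSP2KO 2 and -2.78 in TSP2KO 3. Over all 14707 tested genes these medians were between -0.03 and -0.01. The library labelled WT 3 was above every TSP2KO library for 30 of the 33 genes, against 30.2% of all tested genes. Of the 33, 25 had at least 2-fold lower values in every TSP2KO library than in both WT 1 and WT 2. For 24 of these 25 the library labelled WT 3 was nearer to WT 1 and WT 2 than to the TSP2KO mean, the exception being Cybb. Among all 404 tested genes with such a difference, 43.3% had the library labelled WT 3 nearer to WT 1 and WT 2. These are descriptions of a single library and carry no test.

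**Figure D4:**
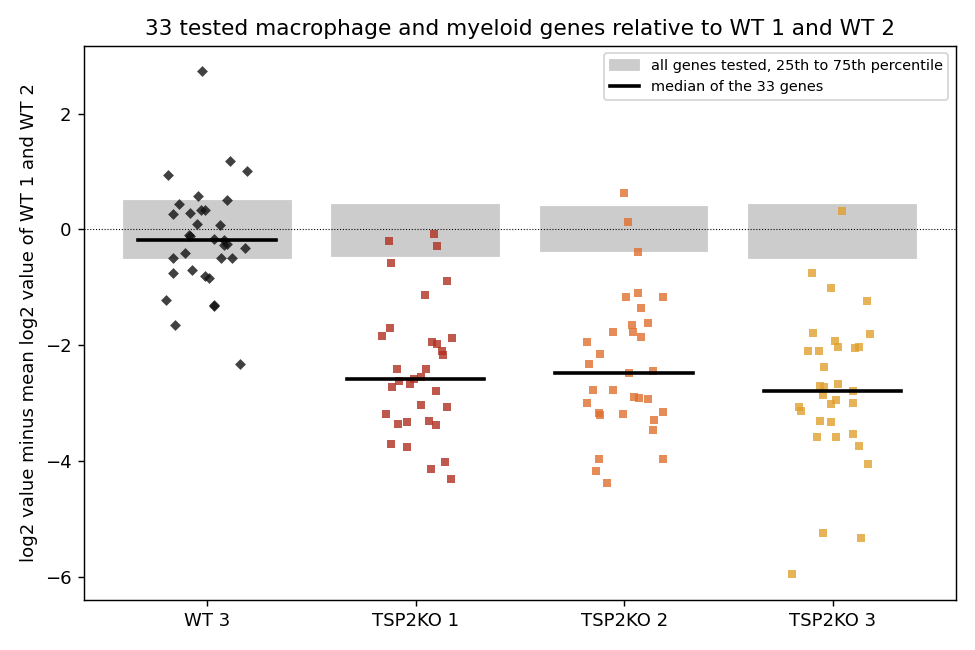
Log2 value minus the mean of the log2 values in WT 1 and WT 2 (vertical) for the 33 tested genes (points) in the library labelled WT 3 and in each TSP2KO library (horizontal). Black bars are the medians, -0.19, -2.59, -2.47 and -2.78, and grey boxes span the 25th to 75th percentile of all tested genes. The points of the library labelled WT 3 centre near 0, with Fcgr2b highest at 2.73 and Cybb lowest at -2.33.

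Within the myeloid genes the library labelled WT 3 was more spread out than WT 1 and WT 2 were from each other. Its offsets had an interquartile range of 1.05 over the 33 genes, while the difference between WT 1 and WT 2 had one of 0.32. Over all 14707 tested genes these ranges were 0.98 and 0.61. The wide spread of the library labelled WT 3 was thus not particular to the myeloid genes. For 11 genes the library labelled WT 3 lay above both WT 1 and WT 2, for 17 below both and for 5 between them. The matching shares over all tested genes were not computed. Its highest offsets were those of Fcgr2b (2.73), Lcp1 (1.18), Cd68 (1.02) and Lcp2 (0.93). Its lowest were those of Cybb (-2.33), Clec7a (-1.66), Ncf1 (-1.33), Itgam (-1.31) and Lyz2 (-1.22). By role, the median offset was 0.43 for microbial and damage receptors, 0.30 for Fc receptors and adapters, 0.10 for cytoskeleton and signalling and -0.15 for surface and adhesion molecules. It was -0.41 for lysosomal genes, -0.49 for C1q, -0.49 for MHC class II and -1.83 for the NADPH oxidase, the last 2 over 2 genes each. In the same library the keratinocyte, endothelial and mast cell sums given above were the highest of the 6, and their part in these offsets was not tested.

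The TSP2KO libraries differed from each other at single genes. Mpeg1 and Fcgr2b were lowest in TSP2KO 3, at 5.34 and 0.890 normalised reads, where C5ar1 at 43.6 was the highest of TSP2KO. C1qa was highest in TSP2KO 1, at 20.7, and Cd68 in TSP2KO 2, at 140. TSP2KO 3 was also the library with the lowest estimated depth.

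Promoter sequence was read for the genes at hand from RefSeq on GRCm38.p6, the assembly of mm10. It covered 36 promoters of 30 of the 43 genes, each with 250 bases before and 50 after the start. The letters GAGGAA, a purine-rich core of the kind bound by PU.1 and other ETS factors, were searched on both strands. They were found in 19 of the 36 promoters (52.8%), against 28.3% of all 32851 promoters in the table. The longer GAGGAAGT, which contains the shorter motif, was found in 2 of the 36 (5.56%), those of C1qc and Cd53, against 3.20% of all. The longer match of Cd53 is not within the bases shown for it below. A match is a description of letters and not a binding site. Genes with small differences, such as Plek and Cd68, also held the shorter motif. Of the 5 genes past the threshold, C1qb and Cd53 have a promoter in the table, and Msr1, Lilrb4a and Cd74 do not. Both C1qb and Cd53 hold the shorter motif near their start, and the 250 bases before the start are shown for them, 5′ to 3′ on the minus strand, with GAGGAA in capitals. The windows are chr4:136886201-136886450 for C1qb and chr3:106790150-106790399 for Cd53, and neither overlaps an exon of GENCODE M21. The motif begins 30 bases before the RefSeq start of C1qb and 39 bases before that of Cd53. For C1qb that start lies upstream of the gene's end coordinate given above, 136886187, which is its start on the minus strand in that annotation.
C1qb: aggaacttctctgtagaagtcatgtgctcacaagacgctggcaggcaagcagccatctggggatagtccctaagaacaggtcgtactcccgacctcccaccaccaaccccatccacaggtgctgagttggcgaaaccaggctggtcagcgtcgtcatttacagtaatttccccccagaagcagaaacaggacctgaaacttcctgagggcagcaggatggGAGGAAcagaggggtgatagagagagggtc
Cd53: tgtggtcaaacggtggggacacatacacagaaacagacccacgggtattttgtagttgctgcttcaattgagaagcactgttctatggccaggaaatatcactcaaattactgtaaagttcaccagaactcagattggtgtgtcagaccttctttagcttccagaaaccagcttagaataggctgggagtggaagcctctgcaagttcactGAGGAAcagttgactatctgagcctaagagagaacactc

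Other genes of the same pathways were examined in the same fit. Of 38 further leukocyte genes, listed by role and not by their change, 28 were tested. Of these 23 were lower, against 51.5% of all tested genes, and the median on the log2 scale was -0.88. By limma 0 of them passed in either direction. At an unadjusted p under 0.05, 13 were lower and 1 higher, against 6.09% and 3.66% of all tested genes. Without the library labelled WT 3, 7 passed as lower and 1, Syk, as higher, against 2.75% and 2.43% of all tested genes. Ctss, the lysosomal protease cathepsin S, had 292, 259 and 388 normalised reads in WT and 58.0, 55.9 and 28.5 in TSP2KO (a log2 difference of -2.74, SE 0.34, limma adjusted p = 0.0750). Csf1r, the receptor for the macrophage growth factor, had 224, 160 and 169 in WT and 77.7, 77.2 and 54.0 in TSP2KO (a log2 difference of -1.40, SE 0.26, limma adjusted p = 0.143). Trem2, a lipid-sensing receptor that signals through Tyrobp, had 29.4, 29.4 and 41.7 in WT and 4.02, 5.03 and 0.890 in TSP2KO. For Ctss, Csf1r and Trem2 the groups did not overlap. Syk, the kinase that binds the phosphorylated adapters and is not limited to leukocytes, had 59.7, 93.4 and 114 in WT and 271, 168 and 229 in TSP2KO (a log2 difference of 1.33, SE 0.31, limma adjusted p = 0.215). Its direction was opposite to that of the adapters Fcer1g and Tyrobp in the same libraries.

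By position, 6 of the 43 genes lie on chromosome 17 with Thbs2, at 18.9 Mb (Myo1f), 19.6 Mb (H2-Ab1, H2-Aa and H2-Eb1), 20.5 Mb (Aif1) and 42.7 Mb (Adgre1) from it. The other 37 lie on other chromosomes. All 5 genes past the threshold are among those 37.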

How the data were processed

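RNA was measured by bulk sequencing of stranded poly(A) libraries from 3 WT and 3 TSP2KO fibroblast cultures. The authors deposited a normalised signal per gene. The submitters' processing notes name the build mm10 and the tools STAR, Partek and DESeq2, with no role for each. How reads were counted, on which strand and against which annotation is not given in the sources used here. A column was assigned to a sample by its genotype and number, since library suffixes differ from the labels. Low values in a library were multiples of a constant step, taken as 1 read. Between 68.6% and 73.9% of values above 0 were whole multiples within 0.02 of a read, so whole reads were not recovered and no count test was run. Depth is the total divided by the step.

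Genes with a mean of at least 10 were tested as log2(value + 1) with limma 3.58.1 in R 4.3.3 (linear model per gene, mean-variance trend, two-sided, Benjamini-Hochberg). Fold changes and log2 differences are TSP2KO minus WT on that scale, and are too small for low genes. The script was tested on simulated data, where most 2-fold changes did not pass the threshold. A gene that did not pass may therefore still differ. Full values are given for genes past the threshold, the 2 with the highest mean in each role and the largest and smallest differences, and others are named in part. The genes, lists and tests were chosen with earlier results of these data known. Exon length is the union of GENCODE M21 exons.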

Additional observations from a re-analysis of the deposited data

How the results depend on the processing

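The number of genes that passed as lower, 5 of 33, moved with most of 16 alternatives. It was 0 with a pseudocount of 0.1, without a filter, with a mean of at least 100, with rescaling by total, by upper quartile or by quantiles, and with the replicate block, 6 with a pseudocount of 10, 8 without the mean-variance trend and 5 with robust shrinkage. Leaving out single libraries gave between 0 and 21, the 21 without the library labelled WT 3 and 0 without any other. Among further leukocyte genes the count was 0 except without that library, so the range was 0 to 7. The median log2 fold change was -1.91 with a pseudocount of 10 and between -2.69 and -2.42 otherwise. Its interquartile range was 0.79 with a pseudocount of 10, 1.57 without a filter, 1.96 with a mean of at least 100 and 0.86 with quantiles, and between 0.84 and 1.20 without single libraries. The median offset of the library labelled WT 3 lay between -0.26 and -0.02. With a mean of at least 100 only 9 of the 33 genes were fitted, and of the 5 genes past the threshold only Lilrb4a, so that setting does not bear on the other 4. None of the 33 genes changed direction or passed as higher under the alternatives in which it was fitted, and 21 passed as lower in at least 1. No pairing by replicate number was seen: deviations of same-numbered libraries correlated at -0.42, -0.25 and -0.39, and no library correlated best with its own number. With 3 libraries per group these correlations depend on each other, so they cannot show that no day or litter was shared. Under the block 0 genes passed. The few reads in TSP2KO limit the size of a fall that these libraries can show.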
